A study of Mus musculus with 8 samples.

Results

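The genes described here carry pyruvate into mitochondria, convert it to acetyl-CoA or oxaloacetate, run the citric acid cycle and draw malate and citrate off it. They are 30 genes chosen by name from this biochemistry, of 49315 genes listed per library, and each name matched 1 row of the deposited tables. Immortalized mouse embryonic fibroblasts (MEFs, connective tissue cells from embryos grown in culture) were sequenced in 2 groups. The knockout group (Opa1-/-, 4 libraries) lacks OPA1, the GTPase that fuses mitochondrial inner membranes and shapes cristae. The reconstituted group (Opa1-/- + OPA1, 4 libraries) has the same genotype with OPA1 put back, so both groups share the Opa1-/- background, and every comparison rests on these 8 libraries. Whether each group is 1 clone, how OPA1 was put back and whether libraries came from separate cultures are not given in the sources used here. The p-values below therefore rest on differences among these 8 libraries alone, and that spread may be technical.

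Pyruvate made by glycolysis enters the mitochondrial matrix through the MPC carrier. The pyruvate dehydrogenase complex turns it into acetyl-CoA, and is switched off by the kinases PDK1 to PDK4 and on again by phosphatases, while pyruvate carboxylase makes oxaloacetate from it. In the cycle, citrate synthase joins acetyl-CoA to oxaloacetate, and a series of dehydrogenases returns oxaloacetate while reducing NAD and FAD. Malic enzymes and ATP citrate lyase take carbon out of the cycle. The cytosolic malic enzyme makes NADPH and the lyase serves lipid synthesis, uses that matter in growing fibroblasts.

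The genes of this pathway did not move one way. Of the 30 members, all of which were tested, 8 were higher and 8 lower in the knockout libraries at adjusted p below 0.05, and 14 did not pass. Values are TPM (transcript abundance per transcript length, as a share of the library) after scaling of the libraries to each other. Differences are knockout minus reconstituted as log2 of scaled TPM plus 1, tested with limma across all genes with Benjamini-Hochberg adjustment. Of the 14272 genes tested, 33.1% passed, 16.6% as higher and 16.5% as lower. The members' share was 53.3%, with a median difference of 0.01 against 0.00 for all genes tested. The members were chosen with earlier results of these data known, and the genes tested were not matched to them in TPM. These shares are therefore no test of the pathway. The libraries of the groups did not overlap for 16 of 30 members, against 36.4% of the genes tested. Differences were small, running from -0.53 for Pdk3 to 0.48 for Pdk2. By the ratio of mean TPM, Pdk2 alone exceeded 1.5-fold. Adding 1 TPM before the log2 compresses the difference of a gene at low TPM. With 0.1 TPM added instead, Pdk2 stood at 0.64 and Pdk3 at -0.54. The split depends on how libraries are scaled. Scaling was first computed over genes above 0 in every library, and the gene set was changed to genes at 1 TPM or more in every library after those values had been seen. Under the first version 6 members were higher and 11 lower: Dlat and Pdhx did not pass, and Idh1, Sucla2 and Fh1 passed as lower. On the deposited TPM without scaling 5 were higher and 5 lower, and with the median of each chromosome removed 6 were higher and 4 lower. With upper-quartile scaling the counts were 9 and 7. Without reconstituted library 3 they were 6 and 5. The replicate block gave 8 and 10.

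**Figure D1:**
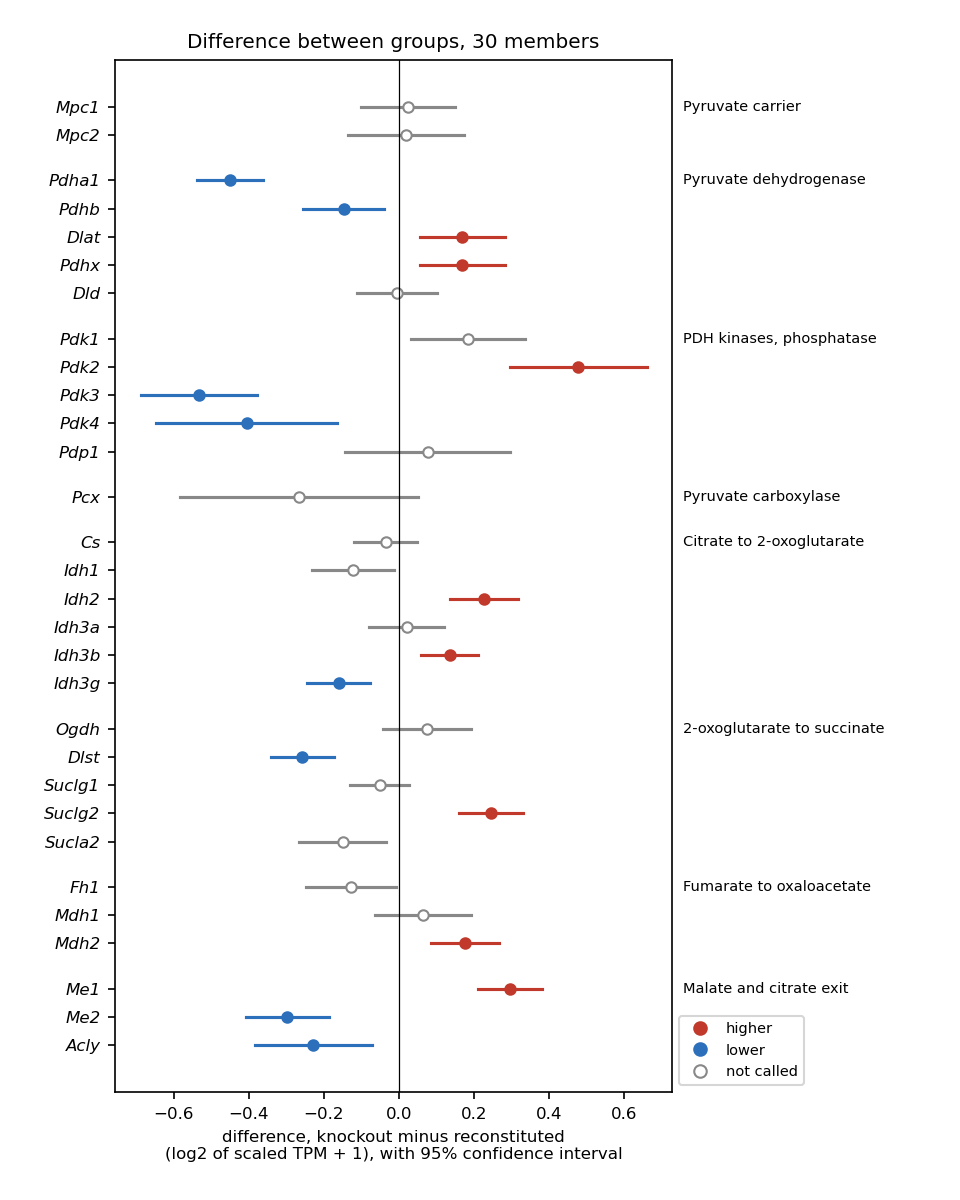
Difference between knockout and reconstituted libraries (x axis, log2 of scaled TPM plus 1) for each of the 30 members (y axis, grouped by role), with points for the estimate and bars for the 95% confidence interval. The 8 higher and 8 lower members are filled, the 14 that did not pass are open, and both directions occur within the pyruvate dehydrogenase complex, its kinases, the isocitrate dehydrogenases and the malic enzymes.

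The call held in each of the alternatives run, 18 for Pdk2 and 19 for the others, for 5 members, Pdk2, Suclg2 and Me1 among those higher and Dlst and Me2 among those lower. The RefSeq promoter table (GRCm38.p6) held 27 of the 30 members, and not Idh3a, Pdp1 and Me2. The 250 bases before the most upstream start are shown for 3 of these 5, as examples of each direction, with motif matches on either strand in capitals. The windows are chr11:95041372-95041621 (minus strand) for Pdk2, chr6:95718847-95719096 (minus strand) for Suclg2 and chr12:85110583-85110832 (plus strand) for Dlst.
Pdk2: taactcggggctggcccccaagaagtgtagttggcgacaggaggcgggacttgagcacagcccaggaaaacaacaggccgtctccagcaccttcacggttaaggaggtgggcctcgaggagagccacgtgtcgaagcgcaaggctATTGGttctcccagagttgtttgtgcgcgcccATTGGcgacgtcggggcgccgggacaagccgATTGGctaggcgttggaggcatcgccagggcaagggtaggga
Suclg2: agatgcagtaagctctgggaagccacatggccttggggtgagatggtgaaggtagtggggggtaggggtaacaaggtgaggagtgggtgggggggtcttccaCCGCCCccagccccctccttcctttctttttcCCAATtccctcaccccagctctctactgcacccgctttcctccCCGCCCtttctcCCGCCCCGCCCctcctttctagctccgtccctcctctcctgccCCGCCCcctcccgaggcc
Dlst: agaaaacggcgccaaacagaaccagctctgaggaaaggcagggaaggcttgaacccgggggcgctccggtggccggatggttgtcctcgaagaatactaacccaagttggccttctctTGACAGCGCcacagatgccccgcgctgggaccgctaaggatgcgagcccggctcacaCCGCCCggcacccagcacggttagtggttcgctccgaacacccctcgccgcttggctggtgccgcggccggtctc
The Pdk2 window held 3 matches to CCAAT, the box bound by the factor NF-Y, starting 105, 73 and 42 bases before the start. The Suclg2 window held 1 CCAAT match and 5 matches to the GC box GGGCGG, of which those starting at 61 and 56 bases share a base. In the Dlst window there was 1 GC box and 1 match to TGACNNNGC, the core of the antioxidant response element. Over all 32851 windows of this length, 33.85% held CCAAT, 32.7% GGGCGG and 10.2% TGACNNNGC, and among the 27 members 16, 19 and 3 did. The 3 with TGACNNNGC were Dlst, Idh3g and Sucla2, and the Me1 window held none. TGATGNAA, the core of the composite site for ATF4 and C/EBP factors, was in 3.45% of all windows and TCAAGGTCA, the element of estrogen-related receptors, in 0.387%, and neither was found in these 27. These are letter matches only, and the table also lists noncoding and predicted genes.

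Some facts of the libraries bear on all values. A set of 4 abundant small and ribosomal RNA genes took 5.29% to 15.5% of the TPM, and in each group the share was lowest in library 3. Deviations ran along exon length most in knockout libraries 3 and 4 (Spearman rho across 9406 genes 0.47 and -0.46, genes not being independent replicates). The difference between the groups also ran along exon length, with a rho of -0.21 over the same genes. Knockout library 4 was the lowest knockout library for 15 members and the highest for 9. Opa1 itself was at 12.6 to 14.8 scaled TPM in the knockout and 14.5 to 15.6 in the reconstituted libraries. That total does not check the labels. Of 8 fibroblast markers, Pdgfra stayed below 1 TPM in all libraries and was lower in every knockout library (0.392 ± 0.0802 against 0.810 ± 0.0309 TPM). The list summed to 2272 to 2574 TPM in the knockout and 2699 to 2724 in the reconstituted libraries. That sum hides opposed shifts. Of the 7 tested, Col1a1 (-0.51), Col1a2 (-0.56), Pdgfrb (-0.45) and Twist1 (-0.32) passed as lower and Col3a1 (0.43) as higher. Vim, the most abundant, and Thy1 did not pass. Vim was at 1348 to 1580 TPM in the knockout and 1352 to 1377 in the reconstituted libraries. The 4 epithelial markers summed to 13.2 to 16.5 against 7.63 to 9.67 TPM. Nearly all of that was Cdh1 (12.9 ± 1.79 against 8.09 ± 0.906), with Epcam, Krt5 and Krt14 below 1 TPM. Even so, Epcam (0.417 ± 0.129 against 0.0974 ± 0.0375) and Krt14 (0.518 ± 0.172 against 0.166 ± 0.101) were higher in every knockout library. The groups overlapped for Krt5. The 4 endothelial markers summed to 0.205 to 0.494 TPM over all libraries. Cd68 alone of 4 blood markers reached 1 TPM. Below that level, Csf1r was lower in every knockout library (0.447 ± 0.116 against 0.813 ± 0.061 TPM). Of 4 muscle markers Myog was at 0 in all libraries and Myod1 in all reconstituted ones, Actc1 reached 1.12 TPM, and Des was below 1 TPM but higher in every knockout library (0.655 ± 0.106 against 0.254 ± 0.103 TPM). The part of these marker shifts in the results below was not tested. In bulk RNA, fewer cells of a kind and less RNA per cell cannot be told apart.

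Of the steps that bring pyruvate into the matrix, the carrier did not differ detectably and the dehydrogenase complex changed unevenly. Mpc1 and Mpc2, which together form the pyruvate carrier, were at 15.5 ± 0.792 against 15.2 ± 0.849 and at 8.66 ± 0.607 against 8.53 ± 0.629 TPM (mean ± SD, n = 4 libraries per group, knockout first, here and below). Their differences had 95% confidence intervals of -0.10 to 0.15 and -0.13 to 0.17. Of the 50-base words of Mpc1, 11% recur in transcripts of other genes, chiefly Mpc1-ps. That gene was at 10.9 to 14.2 TPM in the knockout and 9.81 to 10.6 TPM in the reconstituted libraries, near the level of Mpc1 and without overlap, so the Mpc1 values are uncertain to the extent that reads were split between them. Of the Mpc1 exon bases, 23.1% lie under 4930506C21Rik on the other strand, which was at 0.214 to 0.460 TPM.

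Pdha1, the catalytic alpha subunit of the decarboxylase component of pyruvate dehydrogenase (chromosome X, 160122209 to 160138413, minus strand, GRCm38), was at 155, 149, 161 and 147 TPM in knockout libraries 1 to 4. With OPA1 put back its levels were 206, 204, 212 and 214 TPM. Every knockout library lay below every reconstituted one, and the gene fell by 27.0% (-0.45, SE 0.04, adjusted p = 7.21e-05). With chromosome medians removed the call was lost, at -0.11 (adjusted p = 0.0655). Of its exon bases, 16.1% lie under Map3k15 on the other strand, itself at 0.128 to 0.375 TPM. Pdhb, which pairs with it as the beta subunit, had 116 ± 5.97 against 128 ± 5.39 TPM, a difference of -0.15 with SE 0.05 (adjusted p = 0.0408). The Pdhb groups overlapped, since knockout library 2 at 124 TPM exceeded reconstituted library 4 at 123 TPM, and the call was lost in 11 of 19 alternatives and changed sign in 1 more, to 0.02 with chromosome medians removed (adjusted p = 0.790). Words shared with other transcripts, chiefly Gm6123, made up 10.9% of Pdhb, and Gm6123 was at 6.0 to 8.42 TPM over all libraries.

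The core and the tethering subunits of the same complex moved the other way. Dlat, the acetyltransferase core, was at 83.2 ± 5.70 against 73.7 ± 1.33 TPM (0.17, SE 0.05, adjusted p = 0.0293). Pdhx, which anchors the lipoamide dehydrogenase to that core, had 24.5 ± 1.04 against 21.7 ± 1.06 TPM, a difference of 0.17 with SE 0.05 (adjusted p = 0.0282). In both genes every knockout library exceeded every reconstituted one. The Dlat call was lost in 11 of 19 alternatives, with a difference of 0.07 (adjusted p = 0.274) once chromosome medians were removed, and the Pdhx call in 7 of 19. Under the first scaling their adjusted p were 0.0818 and 0.0692. Dld, the lipoamide dehydrogenase that pyruvate and 2-oxoglutarate dehydrogenases share, was at 226 ± 14.7 against 226 ± 3.15 TPM, with a confidence interval of -0.11 to 0.10.

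The kinases that switch the complex off changed in opposite directions according to isozyme. Pdk2 was at 3.16, 2.88, 3.52 and 3.12 TPM in knockout libraries 1 to 4 and at 2.03, 1.85, 2.16 and 1.92 TPM in reconstituted libraries 1 to 4. The groups were apart and the gene rose by 59.3% in mean TPM, the largest proportional change of the 30 members. It did so from the lowest level among them (0.48 as log2 of TPM plus 1, SE 0.08, adjusted p = 0.00216). Pdk1, a kinase known as a hypoxia-inducible gene, was at 3.49 ± 0.164 against 2.95 ± 0.127 TPM (0.18, SE 0.07, adjusted p = 0.0637) with no overlap between groups. It passed in 4 of 18 alternatives, among them protein-coding genes only (adjusted p = 0.0330).

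The 2 more abundant kinases fell. Pdk3 (chromosome X, 93764607 to 93832201, minus strand) was at 36.2, 40.2, 40.2 and 33.1 TPM in knockout libraries 1 to 4 and at 51.9, 53.5, 54.1 and 58.6 TPM in reconstituted libraries 1 to 4. The groups were apart (-0.53, SE 0.07, adjusted p = 0.000554). With chromosome medians removed this call too was lost, at -0.19 (adjusted p = 0.0662). Pdk4, the kinase that fasting and fatty acids are known to induce, was at 233, 231, 303 and 298 TPM in knockout libraries 1 to 4. With OPA1 put back its levels were 338, 313, 378 and 375 TPM. Libraries 3 and 4 were higher than 1 and 2 in both groups, yet the groups did not overlap (-0.41, SE 0.11, adjusted p = 0.0175). Without reconstituted library 3 or 4 the adjusted p was 0.0507 and 0.0505.

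Pdk4 made up most kinase transcript in both groups, 85.6% ± 2.28 of the summed TPM of Pdk1 to Pdk4 against 85.5% ± 0.904. The sum ran from 276 to 350 TPM in the knockout and from 372 to 438 TPM in the reconstituted libraries, so the summed level was lower although Pdk2 was higher. The share held by Pdk2 was 1.03% ± 0.0921 against 0.486% ± 0.0335. Pdp1, the phosphatase catalytic subunit that switches the complex back on, was at 11.8 ± 1.54 against 11.1 ± 1.13 TPM (0.08, confidence interval -0.14 to 0.30). Its relative Pdp2, from a list of further pathway genes, fell from 10.9 ± 0.423 to 7.27 ± 0.838 TPM (-0.53, adjusted p = 0.000830).

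**Figure D2:**
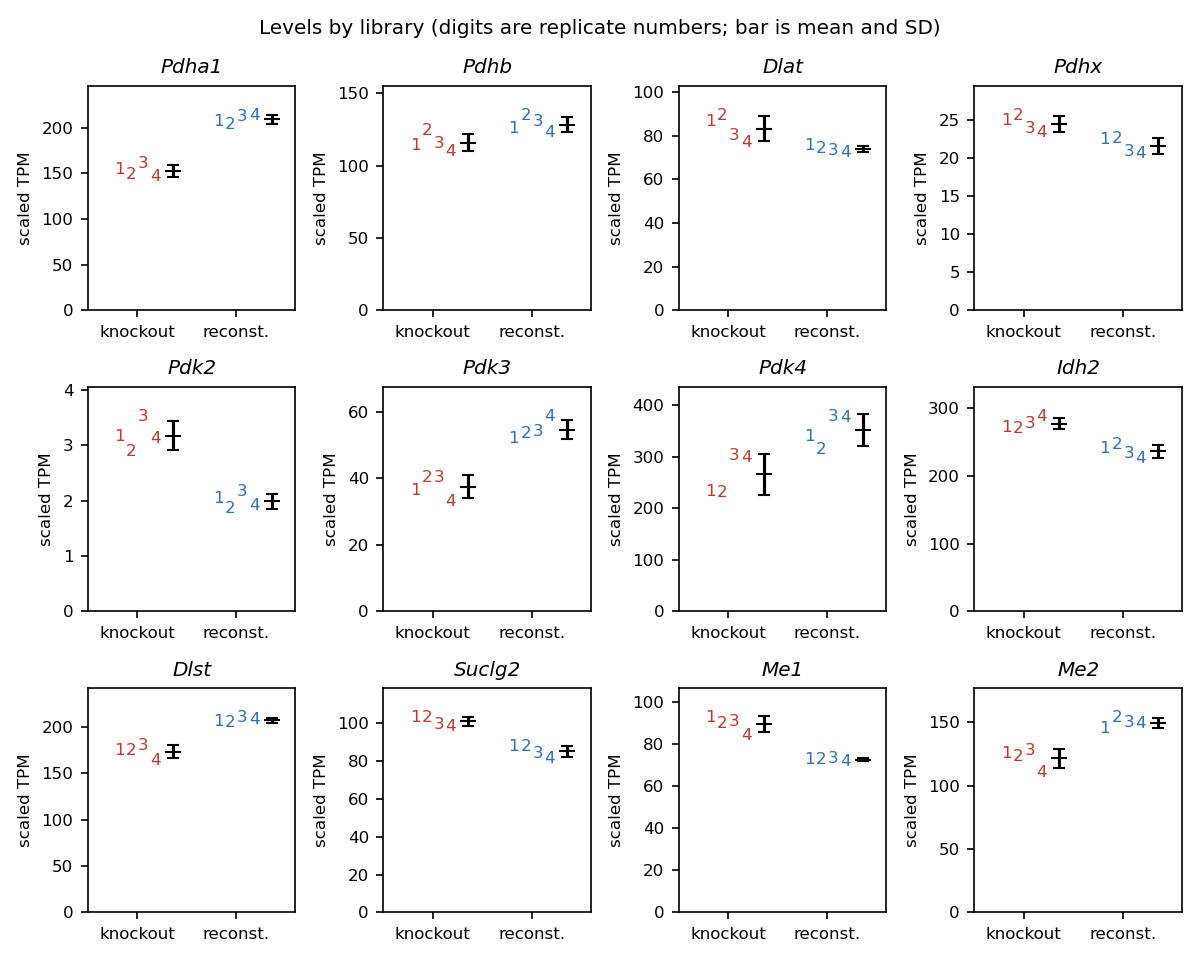
Scaled TPM (y axis, from 0) of 12 members in each library, knockout in red and reconstituted in blue. Digits are replicate numbers drawn at the library's level, and black marks are the mean and SD of 4 libraries. The groups are apart in every panel except Pdhb, and Pdk4 is higher in libraries 3 and 4 of both groups.

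Pcx, pyruvate carboxylase, which feeds oxaloacetate to the cycle, did not pass. It was at 12.7, 11.7, 16.6 and 14.4 TPM in knockout libraries 1 to 4 and at 14.0, 14.3, 19.1 and 20.2 TPM in reconstituted libraries 1 to 4 (-0.27, SE 0.14, adjusted p = 0.180). Libraries 3 and 4 were above 1 and 2 in both groups, as with Pdk4. With the replicate number as a block, which takes that shared shift out, the adjusted p was 0.0258.

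Between citrate and 2-oxoglutarate the isocitrate dehydrogenases went different ways. Cs, citrate synthase, was at 335 ± 12.8 against 343 ± 4.26 TPM, with a confidence interval of -0.12 to 0.05. Idh2, the mitochondrial NADP-dependent enzyme, was at 272, 271, 278 and 288 TPM in knockout libraries 1 to 4 and at 241, 247, 234 and 225 TPM in reconstituted libraries 1 to 4. Every knockout library was higher (0.23, SE 0.04, adjusted p = 0.00267), and with chromosome medians removed the difference was 0.11 (adjusted p = 0.0520). Its cytosolic counterpart Idh1 was at 76.8 ± 3.13 against 83.7 ± 4.49 TPM (-0.12, adjusted p = 0.0832), with overlapping groups, and passed under the first scaling (adjusted p = 0.0410).

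The 3 subunits of the NAD-dependent isocitrate dehydrogenase, the enzyme of the cycle proper, did not move together. The catalytic Idh3a was at 91.7 ± 5.32 against 90.3 ± 1.16 TPM (confidence interval -0.08 to 0.12). Idh3b rose by 9.95% (115 ± 3.53 against 105 ± 1.16 TPM; 0.14, adjusted p = 0.0146), without overlap. The X-linked Idh3g was at 118 ± 4.15 against 132 ± 2.86 TPM (-0.16, SE 0.04, adjusted p = 0.00970), also without overlap. Relative to the other X-linked genes Idh3g was higher, at 0.18 with adjusted p = 0.00712 once chromosome medians were removed. The Idh3b and Idh3g calls were lost on the deposited TPM (adjusted p = 0.136 and 0.0564).

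In the oxidation of 2-oxoglutarate, Dlst fell and its partner did not pass. Dlst, the succinyltransferase core of the 2-oxoglutarate dehydrogenase complex (chromosome 12, 85110833 to 85134845, plus strand), was at 175, 174, 180 and 164 TPM in knockout libraries 1 to 4. With OPA1 put back the levels were 206, 204, 210 and 208 TPM. The groups were far apart relative to their spread (-0.26, SE 0.04, adjusted p = 0.000943). Ogdh, the decarboxylase of the complex, was at 59.9 ± 4.06 against 56.7 ± 1.73 TPM (0.08, adjusted p = 0.300).

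Succinyl-CoA synthetase, the step of the cycle that makes a nucleoside triphosphate directly, pairs a common alpha subunit with either of a pair of beta subunits. Suclg2, the GTP-forming beta subunit (chromosome 6, 95473009 to 95718800, minus strand), was at 103, 103, 99.4 and 98.5 TPM in knockout libraries 1 to 4. The reconstituted levels were 87.4, 87.7, 83.9 and 81.5 TPM. All knockout libraries were higher (0.24, SE 0.04, adjusted p = 0.00138). Its 50-base words recur to 16.0% in Gm15163, itself at 2.56 to 3.93 TPM. Sucla2, the ATP-forming beta subunit, was at 41.6 ± 2.92 against 46.2 ± 0.915 TPM without overlap (-0.15, SE 0.05, adjusted p = 0.0519), and passed in 6 of 19 alternatives, among them the replicate number as a block (adjusted p = 0.0477) and the first scaling (adjusted p = 0.0455). The alpha subunit Suclg1 was at 57.0 ± 1.12 against 59.1 ± 1.44 TPM (confidence interval -0.13 to 0.03).

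Of the enzymes from fumarate to oxaloacetate, the mitochondrial malate dehydrogenase was the only one of 3 that passed. Mdh2 was at 301 ± 14.2 against 267 ± 3.9 TPM with no overlap (0.18, SE 0.04, adjusted p = 0.00946). Once chromosome medians were removed the difference was 0.11 (adjusted p = 0.0890). Mdh1, the cytosolic enzyme, was at 153 ± 13.0 against 146 ± 2.27 TPM (adjusted p = 0.424). Fh1, fumarase, was at 74.7, 75.9, 76.1 and 87.9 TPM in knockout libraries 1 to 4 and at 83.8, 87.2, 86.3 and 86.0 TPM in reconstituted libraries 1 to 4. Knockout library 4 stood with the reconstituted ones. The difference was -0.13 (adjusted p = 0.0984), -0.18 (adjusted p = 0.00124) without that library and -0.15 (adjusted p = 0.0341) under the first scaling.

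Both malic enzymes changed, in opposite directions. Me1, the cytosolic NADP-dependent enzyme, a target of the transcription factor NRF2, was at 92.8, 90.0, 90.9 and 84.3 TPM in knockout libraries 1 to 4. The reconstituted levels were 72.7, 72.8, 73.4 and 71.6 TPM. Each knockout library was higher (0.30, SE 0.04, adjusted p = 0.000531). Of the 50-base words of Me1, 22.9% recur in other transcripts. The gene that shares most of them carries no gene name, and its level is not given here. Next came Gm7329, which was at 1.05 TPM or less. The Me1 values are uncertain to the extent that reads were split with these genes. Me2, the mitochondrial malic enzyme, was at 125, 123, 128 and 110 TPM in knockout libraries 1 to 4 and at 145, 154, 150 and 149 TPM in reconstituted libraries 1 to 4. Each knockout library was lower (-0.30, SE 0.05, adjusted p = 0.00199). Acly, ATP citrate lyase, which makes cytosolic acetyl-CoA from citrate, was at 180, 174, 214 and 168 TPM in knockout libraries 1 to 4 and at 221, 213, 212 and 215 TPM in reconstituted libraries 1 to 4. Knockout library 3 lay among the reconstituted ones (-0.23, SE 0.07, adjusted p = 0.0321), and the call was lost in 9 of 19 alternatives.

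Levels per transcript length ordered the members alike in both groups at the bottom and less so at the top. In the reconstituted libraries Pdk4 (351 ± 31.2 TPM) and Cs (343 ± 4.26 TPM) were highest and overlapped, followed by Mdh2, Idh2 and Dld. In the knockout libraries Cs was highest, then Mdh2 and Idh2, and Pdk4 was 4th at 266 ± 39.8 TPM, overlapping Idh2. Pdk2, Pdk1 and Mpc2 were the 3 lowest in both groups. The members varied little between libraries of a group, with a median coefficient of variation of 5.48% in the knockout and 2.41% in the reconstituted libraries, and 22 of 30 members varied more in the knockout libraries.

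Ratios of 2 members within a library do not depend on how libraries are scaled. For 8 pairs of related enzymes they were compared with an exact two-sided permutation test that did not pair same-numbered libraries. With 4 libraries against 4, the smallest p it can give is 0.0286. After adjustment that is 0.0457 when 5 of 8 pairs reach it, as they did. With same-numbered libraries kept together, such a test on 4 libraries per group could not give a p below 0.05. Me1 over Me2 was 0.737 ± 0.0219 in the knockout and 0.486 ± 0.0121 in the reconstituted libraries, a log2 difference of 0.60. The lowest knockout ratio, 0.710, was far above the highest reconstituted one, 0.501. Sucla2 over Suclg2, the ATP-forming against the GTP-forming subunit, was 0.412 ± 0.0194 against 0.543 ± 0.0144 (-0.40), with no overlap. Idh1 over Idh2, cytosolic against mitochondrial, was 0.277 ± 0.00745 against 0.354 ± 0.0131 (-0.35), again apart.

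The other pairs differed less or not detectably. Acly over Cs was 0.518 to 0.607 in the knockout and 0.611 to 0.638 in the reconstituted libraries (-0.19), and Mdh1 over Mdh2 was 0.481 to 0.534 against 0.539 to 0.555 (-0.11). In both of these pairs knockout values came close to the reconstituted ones without reaching them. Pdk1 over Pdp1 (p = 0.114, adjusted 0.152, exact), Pcx over Pdhb (p = 0.543, adjusted 0.620, exact) and Mpc1 over Mpc2 (p = 1.0, adjusted 1.0, exact) overlapped. The mean ratios of the last pair were 1.79 ± 0.0575 and 1.79 ± 0.140. With chromosome medians removed, an alternative chosen after seeing the data, Sucla2 over Suclg2 and Idh1 over Idh2 differed by less, at -0.26 and -0.22.

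**Figure D3:**
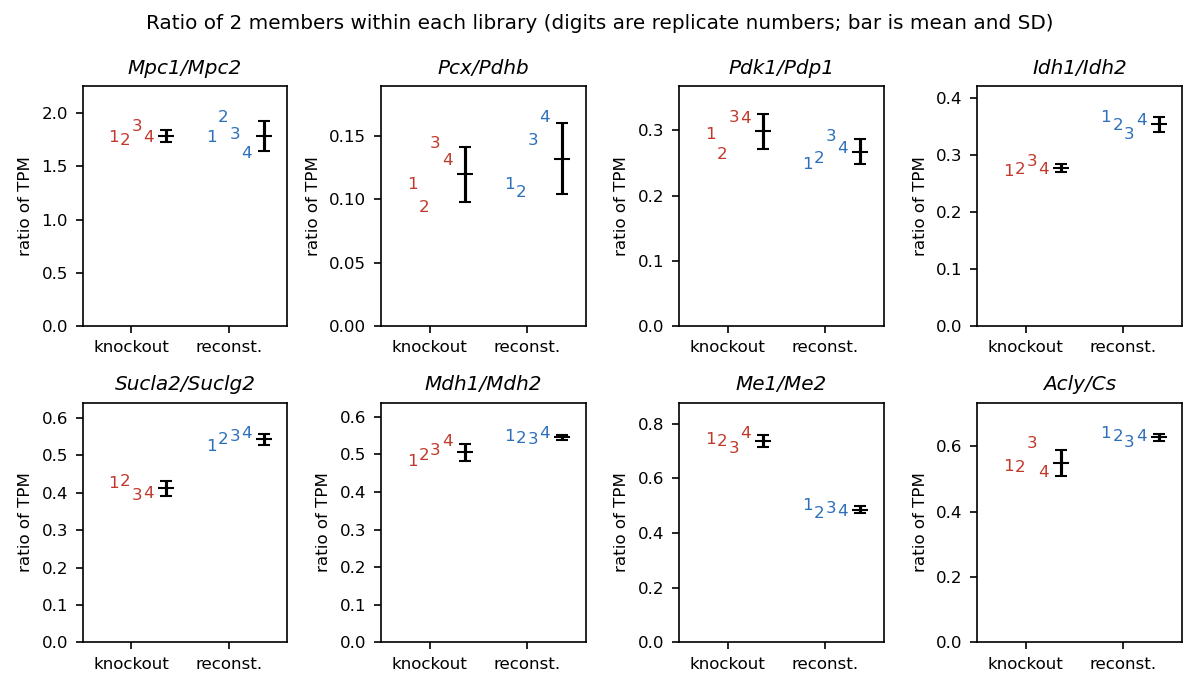
Ratio of the TPM of 2 members within each library (y axis, from 0) for 8 pairs, knockout in red and reconstituted in blue. Digits are replicate numbers drawn at the library's ratio, and black marks are the mean and SD of 4 libraries. Me1/Me2 is higher and Sucla2/Suclg2 and Idh1/Idh2 are lower in all knockout libraries, while Mpc1/Mpc2 and Pcx/Pdhb overlap.

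Whole chromosomes differed between the groups, and several members moved with theirs. The median difference was -0.36 over 301 X-linked genes, -0.16 over 299 genes of chromosome 14 and 0.11 over 644 genes of chromosome 7. Pdha1, Pdk3 and Idh3g are X-linked, and Pdhb and Sucla2 lie on chromosome 14. The median was 0.10 over 509 genes of chromosome 9, which carries Dlat and Me1, and Me1 was still higher after removal at 0.20 (adjusted p = 0.00312). The other 4 members whose call held throughout stood at 0.43 (Pdk2), 0.27 (Suclg2), -0.16 (Dlst) and -0.27 (Me2) after removal. What moves whole chromosomes was not tested.

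**Figure D4:**
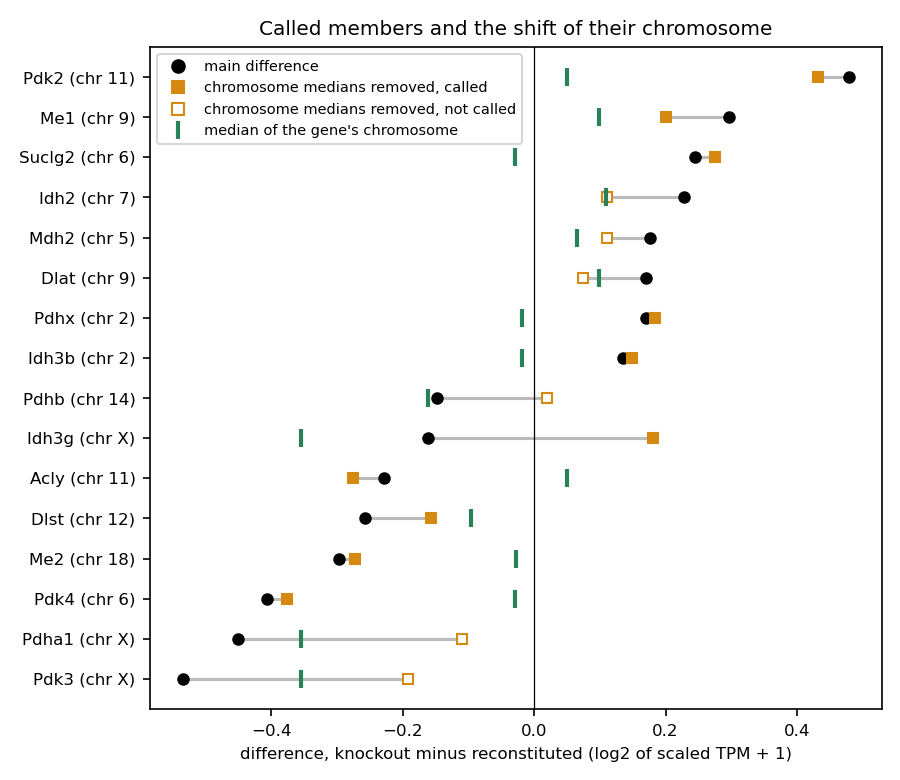
Difference between groups (x axis, log2 of scaled TPM plus 1) for the 16 members that passed (y axis, with chromosome). Black points are the main difference, squares the difference after chromosome medians were removed (filled where it passed), and green ticks the median of all genes on that chromosome with a mean log2 value above 3. The X-linked Pdha1, Pdk3 and Idh3g shift most, and Idh3g and Pdhb change sign.

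Genes that neighbour the pathway were taken from lists chosen by function. Of 12 further enzymes of the cycle and of pyruvate use, 10 were tested, 4 rose and 2 fell. Pck2, the mitochondrial enzyme that makes phosphoenolpyruvate from oxaloacetate, was at 80.9 ± 14.9 against 36.5 ± 3.33 TPM (1.11, adjusted p = 0.000250), a larger difference than that of any of the 30 members. Aco1, the cytosolic aconitase that is also an iron regulatory protein, fell from 58.7 ± 1.35 to 42.8 ± 3.96 TPM (-0.45, adjusted p = 0.000688). Of succinate dehydrogenase, the membrane anchors Sdhc and Sdhd rose (0.21 and 0.18), while Sdha and Sdhb, the catalytic subunits, did not pass (adjusted p = 0.859 and 0.986). Pck1 and Me3 stayed below 1 TPM.

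Lipoate is the swinging arm of Dlat and Dlst, and of 11 genes that make it or supply its iron-sulfur clusters, 5 rose and 1 fell. Lipt2, the octanoyl transferase, rose from 9.24 ± 0.573 to 13.0 ± 2.05 TPM (0.44, adjusted p = 0.00806), Bola3, an iron-sulfur cluster factor, by 0.28 and Mcat, of mitochondrial fatty acid synthesis, by 0.21, and Glrx5, a cluster carrier, fell by 0.23. The other 2 that rose were Lias, the lipoate synthase, and Nfu1, both by small amounts (0.18 and 0.16).

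Of 7 genes of pyruvate supply and lactate, 2 rose and 1 fell. Gpt2, which makes alanine from pyruvate in mitochondria, was at 48.3 ± 7.70 against 24.9 ± 3.58 TPM (0.93, adjusted p = 0.000724). Slc16a3, a lactate exporter, was at 6.11 ± 0.269 against 3.17 ± 0.281 TPM (0.77), and Slc16a1, its more abundant relative, fell by 0.15. Pkm and Ldha, the last steps of glycolysis, were at 0.02 and 0.03 and did not pass. Of 10 genes of glutamine entry and shuttles, 3 rose and 1 fell. Slc1a5, a glutamine carrier, rose by 0.52, Slc25a11, the malate carrier, by 0.25 and Slc25a10 by 0.14, and Got2 fell by 0.23. Among 7 genes that use citrate or acetyl-CoA, 6 were tested and none rose, while Hmgcs1 and Acat2, of sterol synthesis, fell by 0.46 and 0.38. The share of genes called in these lists ranged from 33.3% to 60%, against 33.1% of all genes tested.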

How the data were processed

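RNA of 8 libraries was measured. An RNeasy Plus kit gave the RNA and a NEBNext Ultra II kit the libraries, per the labels' protocols. The submitters' processing notes name STAR 2.5.2b, featureCounts, Subread 1.5.2 and bcl2fastq 2.17, and the builds mm10 and GRCh38 without a role. They do not say whether reads were counted by strand. The authors deposited TPM values, per the file headers, for 49315 genes per library, with no scaling between libraries. TPM keeps no depth, so no interval for counting error is given.

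Libraries were scaled here by an unweighted trimmed mean of log ratios to the geometric mean library (trims at each end: 30% by ratio, 5% by level), over genes at 1 TPM or more in all libraries. That gene set was chosen after the members' values under a first version, over genes above 0 in all libraries, had been seen; the first version is kept as an added alternative. Genes reaching 1 TPM in 4 or more libraries were fitted with limma 3.58.1 (R 4.3.3, mean-variance trend, two-sided, pseudocount 1 TPM, no covariates) and adjusted by Benjamini-Hochberg, called below 0.05. On simulated libraries of this comparison (14272 genes, 50 changed at each fold), 60%, 82%, 100% and 98% were recovered at 1.25, 1.5, 2 and 4 fold. Of 182 calls, 12 were false. Far fewer genes were changed there than the 33.1% called in the data. The noise was drawn separately for each gene and library, without shifts by replicate number, exon length or chromosome. These rates therefore check the code and do not give the error of the calls reported here. Positions, exon lengths and words of 50 bases were taken from GENCODE M21, on GRCm38. No 2 libraries held identical values. Same-numbered libraries deviated together in every pair (correlations 0.25, 0.22, 0.32 and 0.12 across genes). Pair 4 stood out little, since reconstituted library 4 also correlated at 0.114 with knockout library 3. The replicate number was used to pair libraries only in the replicate block alternative. The main fit and the permutation test treated the libraries as unpaired. Python 3.11.15 and scipy 1.17.1 were used elsewhere.

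The members, lists and ratios were chosen with earlier results of these data known. All members are named, and of each further list up to 4 called genes with the largest difference; Sdhd, Sdha, Sdhb, Lias, Nfu1, Pkm, Ldha and genes below the filter were added after their values were seen. Alternatives were other scalings, filters, a pseudocount of 0.1 TPM, the replicate block, protein-coding genes only, chromosome medians or the trend with exon length and GC content (splines with 4 degrees of freedom) removed, and libraries left out. Some genes of the further lists are not reported here.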

Additional observations from a re-analysis of the deposited data

Results flagged for a closer look

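Fh1 in knockout library 4 was at 87.9 TPM, against 76.1 TPM in the nearest knockout library, a gap of 0.898 of the group's whole range. It was the 1 sample that stood far from its group among 60 groups of 4 libraries (30 members in each of 2 groups), where chance marks about 1 in 20.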

How the results depend on the processing

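Of the 16 members that passed, 5 kept the call in all alternatives run, and 8 of the 14 others passed in none. On the deposited TPM 5 members were higher and 5 lower, and with chromosome medians removed 4 were lower. Scaling over genes above 0 in every library, the version run first and replaced after its values were seen, gave 6 higher and 11 lower members. With 1 library left out the counts ran from 6 to 9 higher and from 5 to 8 lower. Over all alternatives 3256 to 5298 genes were called, against 4731. The replicate block called 4748 genes and 8 higher and 10 lower members, adding Pcx and Sucla2 and changing no other member's call.

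Signs changed with chromosome medians removed for Pdhb (0.019), Dld (0.10), Idh3a (-0.075), Idh3g (0.18), Sucla2 (0.016), Mpc1/Mpc2 (-0.026) and Pdk1/Pdp1 (-0.028). With the length and GC trend removed they changed for Dld (0.063), Cs (0.023) and Mpc1/Mpc2 (-0.077). Under the first scaling they changed for Mpc2 (-0.0020) and Idh3a (-0.0033), and with upper-quartile scaling for Dld (0.022). Without both libraries numbered 3 they changed for Dld (0.012) and Mpc1/Mpc2 (-0.015). With 1 library left out, the difference ran from -0.010 to 0.052 for Mpc1, -0.015 to 0.063 for Mpc2, -0.048 to 0.023 for Dld, -0.015 to 0.050 for Idh3a and -0.043 to 0.050 for Mpc1/Mpc2. Of these, Idh3g and Pdhb had passed. Ratios moved by more than 1 SD for Idh1/Idh2 (-0.30 without the length trend, -0.22 without chromosome medians), Me1/Me2 (0.56 and 0.47) and Sucla2/Suclg2 (-0.26 without chromosome medians). The cause was not tested. TPM keeps no depth, so counting error could not be set apart.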
